A study of Mus musculus with 6 samples.

Results

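Transcripts of 10 chemokine genes were followed in mouse hippocampus, namely Ccl2, Ccl12, Ccl3, Ccl4, Ccl5, Cxcl10, Cxcl16, Cx3cl1, Cxcl12 and Cxcl14. They were chosen by symbol, each matched 1 Ensembl identifier, and they are 10 of the 52550 genes in the count table. The hippocampal libraries were 3 of controls and 3 given the label L-DL KD. By the study's methods, the mice were male wild-type C57BL/6 J, injected in the CA1 areas on both sides at 8 weeks of age. The adeno-associated virus carried control shRNA or L-DL shRNA. The sample titles call the controls only WT, so the injection of control virus is taken from the methods. The H1 promoter, which is not restricted to a cell type, drove the L-DL shRNA, and L-DL is the long isoform of the RNA-binding protein hnRNP DL. The labels call the L-DL shRNA group a knockdown in one place and hnRNP DL-/- in another. The methods give a higher titre for the control virus, and the age at tissue collection is not given in the sources used here. Reads were counted per gene in bulk tissue, so every cell type of the dissected piece contributed, injected or not. In bulk RNA, fewer cells of a type and less RNA per cell cannot be told apart.

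Chemokines are small secreted or membrane-bound proteins that steer the migration of leukocytes and microglia through G protein-coupled receptors. Their names follow the spacing of conserved cysteines, which defines the CC, CXC and CX3C classes. In the brain, Cx3cl1 is made by neurons and read by microglia through Cx3cr1, Cxcl12 guides cell migration through Cxcr4, and CC ligands such as Ccl2 to Ccl5 and Ccl12 are induced in microglia, astrocytes and infiltrating cells during inflammation. Cxcl10 is a classical interferon-induced ligand.

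Library totals ranged from 16052529 to 17913064 counts. Hnrnpdl (ENSMUSG00000029328), the gene of the targeted protein, stood at 177 ± 6.42 CPM (SD, n = 3) in controls and 180 ± 33.9 CPM (SD, n = 3) in the other group, where CPM is the usual count scaled to a common library size, here by TMM. Since the targeted gene was not lower there (adjusted p = 0.898, edgeR), its group goes by its label, as the L-DL KD-labelled libraries. The count does not separate the long isoform. By immunoblot, the study reported reduced L-DL protein in injected hippocampus, which RNA counts of the whole gene do not measure. Choroid plexus markers varied widely within both groups. None of the 6 passed the test with all libraries, and all 6 were called without replicate 1 of the L-DL KD-labelled libraries. Their sum ran from 441 to 4632 CPM in controls and from 31.9 to 5193 CPM in the L-DL KD-labelled libraries. The part of choroid plexus RNA in the values below was not tested.

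RefSeq windows on build GRCm38.p6, from 250 bases before to 50 bases after the start, were found for 6 of the 10 genes. Those of Ccl2, Ccl4, Ccl5 and Cxcl16 were not used here. The 250 bases before the start are printed for Ccl12 and Ccl3, which both rose in the L-DL KD-labelled libraries, and for Cxcl10, which did not pass the test. They lie at chr11:82101595-82101844 on the plus strand for Ccl12, chr11:83649379-83649628 on the minus strand for Ccl3, and chr5:92348890-92349139 on the minus strand for Cxcl10. Capitals mark matches to an interferon-response motif (GAAA, any 2 bases, GAAA), an NF-kappaB motif (GGGA, any 2 bases, TTCC) or TATAAA (the TATA box). Both strands were searched for these exact patterns only, so that other forms of the motifs stay in lower case and are not counted. No match overlapped another.
Ccl12: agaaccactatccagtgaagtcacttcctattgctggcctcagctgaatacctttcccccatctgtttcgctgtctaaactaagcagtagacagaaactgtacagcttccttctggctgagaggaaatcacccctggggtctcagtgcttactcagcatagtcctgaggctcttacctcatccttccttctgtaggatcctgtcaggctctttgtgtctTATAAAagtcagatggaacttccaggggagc
Ccl3: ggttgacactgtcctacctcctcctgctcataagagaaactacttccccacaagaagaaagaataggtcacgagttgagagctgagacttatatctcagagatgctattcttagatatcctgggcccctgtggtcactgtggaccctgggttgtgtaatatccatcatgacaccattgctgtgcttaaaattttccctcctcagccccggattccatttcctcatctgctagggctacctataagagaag
Cxcl10: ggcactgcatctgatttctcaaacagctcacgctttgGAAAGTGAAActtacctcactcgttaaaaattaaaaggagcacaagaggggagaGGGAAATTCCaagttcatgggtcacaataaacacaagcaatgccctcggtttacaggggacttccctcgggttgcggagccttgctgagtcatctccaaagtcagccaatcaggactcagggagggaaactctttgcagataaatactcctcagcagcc
Cxcl10 holds the interferon-response motif from base -213 to -204 and the NF-kappaB motif from base -159 to -150, counted from the start. Ccl12 holds TATAAA from base -31 to -26, the usual place of a TATA box, and Ccl3 holds none of the 3 motifs in its window. Over the 6 windows, the interferon-response motif was found in 2 (Cxcl10 and Cxcl14), the NF-kappaB motif in 1 and TATAAA in 2 (Ccl12 and Cx3cl1). In Cx3cl1 it lay from base -6 to -1, next to the start and not at the usual place of a TATA box. Among all 32851 RefSeq windows of the same length, the shares with these motifs were 3.44%, 1.47% and 13.6%. A match is a description of the letters and not a measured binding site.

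All 10 chemokine genes passed the filter of 10 counts in 3 or more libraries, so that none was too low to test. Of these, 4 rose (Ccl12, Ccl3, Ccl4 and Cxcl16), 1 fell (Cx3cl1) and 5 did not pass the test (Ccl2, Ccl5, Cxcl10, Cxcl12 and Cxcl14). Genes were tested by quasi-likelihood in edgeR and p was adjusted by Benjamini-Hochberg over 17621 genes, with a threshold of 0.05. It called 30.5% of all tested genes, 15.6% as higher and 15.0% as lower. These shares are the background for the 4 and 1 of 10 and for each list count below. The median log2 fold change was 0.43 for the 10 genes and 0.01 for all genes tested. The groups did not overlap in 6 of the 10 genes, against 47.2% of all tested genes. The genes that rose were among the lower counts of the set, with Ccl4 the least counted at 14 to 30 counts per control library, where single counts weigh most.

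**Figure D1:**
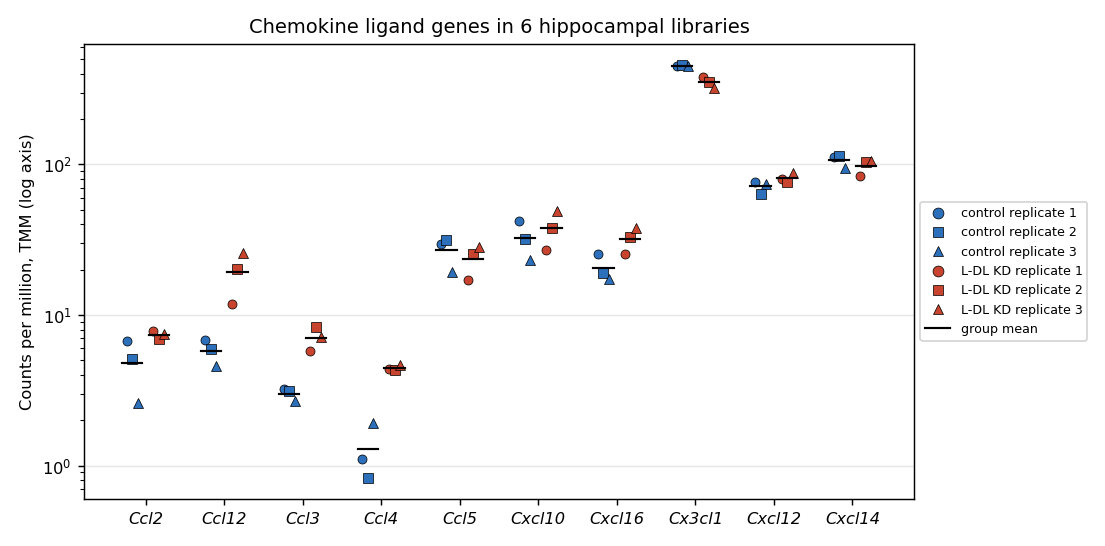
CPM (log axis) of the 10 chemokine genes in each of the 6 libraries, with control libraries in blue, L-DL KD-labelled libraries in red, a marker shape for each replicate number and a bar at the group mean. Red points lie above all blue points for Ccl12, Ccl3 and Ccl4, below them for Cx3cl1, and among them for Ccl5, Cxcl10 and Cxcl14.

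Ccl12 and Ccl2, the ligands of the monocyte receptor Ccr2, lie 64391 bases apart on chromosome 11 and both had non-overlapping groups, but only Ccl12 passed the test. Ccl12 (ENSMUSG00000035352, chromosome 11 from 82101845 to 82103400, GRCm38) stood at 6.78, 5.94 and 4.57 CPM in control replicates 1 to 3 and at 11.8, 20.2 and 25.7 CPM in replicates 1 to 3 of the L-DL KD-labelled libraries. Every L-DL KD-labelled library lay above every control, and its replicate 1 was the nearest to them. The gene rose 3.33-fold (log2 fold change 1.74, standard error 0.29, adjusted p = 0.00343). Ccl2 (ENSMUSG00000035385, 82035571 to 82037453) stood at 6.72, 5.12 and 2.60 CPM in controls and 7.77, 6.90 and 7.51 CPM in the L-DL KD-labelled libraries. Its groups did not overlap, but controls differed among themselves more than the groups did at their nearest points. The log2 fold change of 0.62 had a 95% confidence interval from -0.09 to 1.32 and an adjusted p of 0.167, and the interval holds both no change and the estimate for Ccl3. No stretch of 50 bases was shared between the annotated transcripts of Ccl2 and Ccl12, or with any other gene.

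Ccl3 and Ccl4, neighbours separated by 13228 bases on chromosome 11, encode macrophage inflammatory proteins, which attract myeloid cells, and both rose. Ccl3 (ENSMUSG00000000982, 83647844 to 83649355) stood at 3.20, 3.12 and 2.67 CPM in controls and 5.79, 8.30 and 7.15 CPM in the L-DL KD-labelled libraries. The lowest of the latter was well above the highest control, and the rise was 2.36-fold (log2 fold change 1.24, standard error 0.21, adjusted p = 0.0034). Ccl4 (ENSMUSG00000018930, 83662584 to 83664683) was the least abundant, at 1.11, 0.824 and 1.91 CPM in controls. It stood at 4.35, 4.32 and 4.65 CPM in the L-DL KD-labelled libraries, which were close to each other and above all controls. Its rise was 3.47-fold (log2 fold change 1.79, standard error 0.32, adjusted p = 0.00457). The calls of Ccl12, Ccl3 and Ccl4 held with each library left out in turn, with adjusted p up to 0.0198, 0.0185 and 0.0249 over all alternatives run.

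Ccl5, a CC ligand that is typical of T cells and of activated glia, did not pass the test. It lies on the same chromosome (ENSMUSG00000035042, 83525778 to 83530518), 117325 bases from Ccl3. Its level was 29.8, 31.5 and 19.4 CPM in controls and 17.0, 25.2 and 28.3 CPM in the L-DL KD-labelled libraries. The groups overlapped, and the log2 fold change was -0.19 (95% confidence interval -0.73 to 0.34, adjusted p = 0.568). This interval lies below the estimates for Ccl3, Ccl4 and Ccl12. Beside Ccl5, 2 of 11 tested T cell and NK cell markers passed the test, both lower, and 9 did not, where 30.5% of all tested genes were called. None of the 12 markers lacked counts in all libraries. Their sum ran from 54.0 to 87.5 CPM in controls and from 30.8 to 55.3 CPM in the L-DL KD-labelled libraries. No T cell or NK cell marker was called without control replicate 1, control replicate 2 or replicate 2 of the L-DL KD-labelled libraries, and 1 was called without their replicate 1. The part of T cell RNA in the Ccl5 values was not tested.

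Cxcl10, the interferon-induced ligand of Cxcr3, did not pass the test and varied within both groups. Cxcl10 (ENSMUSG00000034855, chromosome 5 from 92346638 to 92348889) stood at 42.0, 31.8 and 23.2 CPM in controls and 27.2, 38.0 and 49.0 CPM in the L-DL KD-labelled libraries. The groups overlapped over most of their range, and the log2 fold change was 0.23 (95% confidence interval -0.35 to 0.82, adjusted p = 0.527). Interferon signalling genes, a list of 15, were measured beside it. Of 13 tested, 5 rose (Ifnar2, Ifngr1, Irf7, Isg15 and Ifit1) and 8 did not pass the test, where 30.5% of all tested genes were called. Without control replicate 2 or 3 the count was 2, without control replicate 1 it was 3, and without replicate 1 of the L-DL KD-labelled libraries it was 9. Irf7, a transcription factor of the interferon response, rose by 1.09 on the log2 scale (adjusted p = 0.00928). The summed level of the list ran from 594 to 753 CPM in controls and from 667 to 948 CPM in the L-DL KD-labelled libraries. Ifnb1 and Ifng, which encode interferons, were too low to test.

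Cxcl16 is a membrane-bound chemokine and scavenger receptor of myeloid cells, and ligand of Cxcr6. Cxcl16 (ENSMUSG00000018920, chromosome 11 from 70453983 to 70459984) stood at 25.3, 18.9 and 17.2 CPM in controls and 25.2, 33.1 and 38.0 CPM in the L-DL KD-labelled libraries. The highest control and the lowest L-DL KD-labelled library were at the same level, and the other libraries lay apart. The gene rose 1.57-fold (log2 fold change 0.65, standard error 0.19, adjusted p = 0.0344). The call was lost without control replicate 2 (adjusted p = 0.115), without control replicate 3 (0.117), without replicate 2 of the L-DL KD-labelled libraries (0.0862) or without their replicate 3 (0.0941). Exons of Zmynd15 on the opposite strand cover 18.3% of the exon bases of Cxcl16, and Zmynd15 had 117 to 128 counts in controls and 179 to 287 in the L-DL KD-labelled libraries. As the use of strand in counting is not stated, reads of this overlap cannot be assigned. For Cxcl10 the overlap, with Art3, is 5.91%.

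Cx3cl1, or fractalkine, was the one chemokine of the set that fell. Cx3cl1 (ENSMUSG00000031778, chromosome 8 from 94772009 to 94782427) stood at 453, 460 and 448 CPM in controls and 383, 354 and 321 CPM in the L-DL KD-labelled libraries. The controls were within a narrow range and all above the other group. Its fall on the log2 scale was -0.36 with a standard error of 0.08 (adjusted p = 0.00995). Over all alternatives run the value ranged from -0.42 to -0.30 and the call was kept. All 8 neuron markers fell beside it, with a median log2 fold change of -0.96. Their summed level was 7972 to 8469 CPM in controls and 4314 to 5161 CPM in the L-DL KD-labelled libraries. Per 1000 CPM of these markers, Cx3cl1 was at 53.5 to 57.7 CPM in controls and at 74.2 to 74.6 CPM in the L-DL KD-labelled libraries. On this scale, chosen after the values were seen and not tested, the order of the groups was opposite to that of the CPM. As the marker sum fell, a gene with unchanged CPM is higher on this scale.

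Cxcl12 and Cxcl14, constitutively expressed CXC chemokines, did not pass the test. Cxcl12 (ENSMUSG00000061353, chromosome 6 from 117168535 to 117181367) stood at 76.8, 64.1 and 74.4 CPM in controls and 79.8, 76.8 and 87.8 CPM in the L-DL KD-labelled libraries. The lowest L-DL KD-labelled library and the highest control differed by little. The log2 fold change was 0.18 (95% confidence interval -0.03 to 0.39, adjusted p = 0.165). Endothelial markers, of cells that make Cxcl12, rose in 4 of 8 cases (309.8 to 333 CPM summed in controls, 387 to 459 CPM in the L-DL KD-labelled libraries). Meningeal and perivascular fibroblast markers rose in 7 of 8 cases (206 to 417 CPM in controls, 322 to 683 CPM in the L-DL KD-labelled libraries). Their part in the Cxcl12 values was not tested.

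Cxcl14 (ENSMUSG00000021508, chromosome 13 from 56288643 to 56296551) is known from a class of cortical and hippocampal interneurons. It stood at 112, 114 and 95.2 CPM in controls and 84.3, 104 and 105 CPM in the L-DL KD-labelled libraries. The groups overlapped, with a log2 fold change of -0.13 (95% confidence interval -0.38 to 0.12, adjusted p = 0.408). Of 8 genes of such interneurons measured beside it, 3 fell (Lamp5, Cnr1 and Cck) and 5 did not pass the test. Lamp5, a membrane protein of neurogliaform cells, fell by 1.89 on the log2 scale (adjusted p = 0.00035), and without replicate 1 of the L-DL KD-labelled libraries 5 of the 8 were called. The sum of the 8 was 587 to 617 CPM in controls and 378 to 440 CPM in the L-DL KD-labelled libraries. Per 1000 CPM of the neuron markers, Cxcl14 was at 11.7 to 14.3 CPM in controls. It was at 16.3 to 24.4 CPM in the L-DL KD-labelled libraries. This ratio was not tested, and a gene with unchanged CPM is higher on that scale.

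Levels between the genes were compared per kilobase of exon. In controls the order was Cx3cl1, Cxcl14, Ccl5, Cxcl10, Ccl12, Cxcl12, Cxcl16, Ccl2, Ccl3 and Ccl4, from 115 ± 1.45 CPM per kb (SD, n = 3) down to 1.94 ± 0.849 CPM per kb (SD, n = 3). The ranges of neighbours from Cxcl10 to Ccl3 overlapped, so that their order is not fixed by 3 libraries. Cx3cl1, Cxcl14 and Ccl5 lay apart from their neighbours, and so did Ccl4 at the lower end. In the L-DL KD-labelled libraries, Ccl12 moved from rank 5 to rank 3, at 35.9 ± 13.0 CPM per kb (SD, n = 3), with a range that overlapped those of Cxcl14 and Ccl5. Ccl2 was last there, at 6.50 ± 0.393 CPM per kb (SD, n = 3), with a range that overlapped that of Ccl4.

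**Figure D2:**
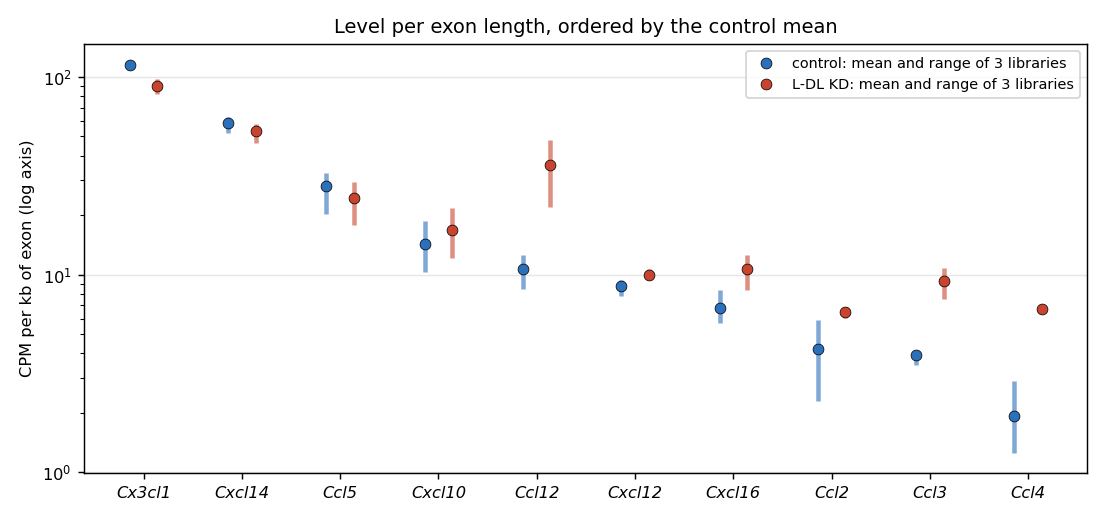
Level per kilobase of exon (log axis) of the 10 chemokine genes, ordered by the control mean, with points for the group mean and bars for the range of the 3 libraries of each group. Ccl12 moves from the middle of the control order to rank 3 in the L-DL KD-labelled libraries, while Cx3cl1 and Cxcl14 lead in both groups.

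Within each group, 1 library was often the lowest. Control replicate 3 had the lowest CPM of its group for 8 of the 10 genes. Among the L-DL KD-labelled libraries, replicate 1 was lowest for 6 (Ccl12, Ccl3, Ccl5, Cxcl10, Cxcl16 and Cxcl14) and replicate 3 was highest for 7. Replicate 1 of the L-DL KD-labelled libraries also had the lowest summed microglia markers of its group, and control replicate 3 of the controls.

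Microglia markers moved with the chemokines that rose. All 12 rose, with a median log2 fold change of 1.07, and their sum was 1183 to 1460 CPM in controls and 2518 to 3264 CPM in the L-DL KD-labelled libraries. Without control replicate 1, 11 were called. Per 1000 CPM of these markers, a scale chosen after the values were seen, Ccl3 was at 2.14 to 2.25 CPM in controls and 2.19 to 2.77 CPM in the L-DL KD-labelled libraries. On this scale the groups overlapped for Ccl12 (3.86 to 4.73 against 4.70 to 7.89 CPM), Ccl4 (0.564 to 1.61 against 1.42 to 1.73 CPM) and Ccl2 as well. Cxcl16, at 13.0 to 17.7 against 10.02 to 11.6 CPM, was lower without overlap, opposite to its CPM. Ccl5, Cxcl10, Cxcl12, Cxcl14 and Cx3cl1 were also lower without overlap. As the marker sum was higher in the L-DL KD-labelled libraries, a gene with unchanged CPM is lower on this scale. These ratios are descriptions and were not tested, and they do not say which cells made the transcripts.

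**Figure D3:**
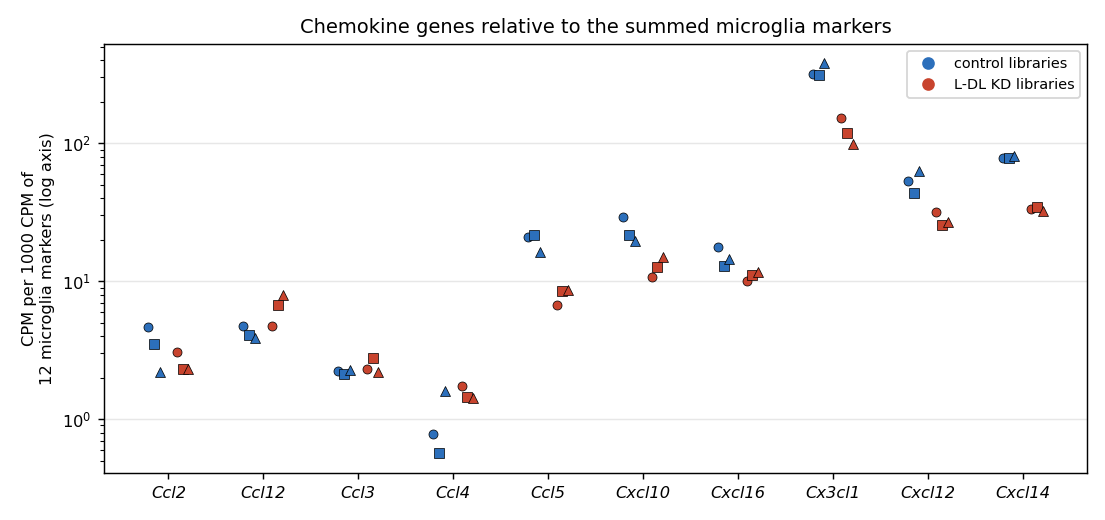
CPM of each chemokine gene per 1000 CPM of the 12 summed microglia markers (log axis), with a point for each library, control libraries in blue, L-DL KD-labelled libraries in red, and circles, squares and triangles for replicates 1 to 3. Red and blue points overlap for Ccl2, Ccl12, Ccl3 and Ccl4 and lie apart, red lower, for the 6 other genes.

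Markers of monocytes and neutrophils, which also make CC chemokines, rose in 2 of 7 tested cases, where 30.5% of all tested genes were called. These were Fn1 and Cd44, which other cells express too. Their list of 9 summed to 215 to 231 CPM in controls and 356 to 502 CPM in the L-DL KD-labelled libraries, and without replicate 1 of the L-DL KD-labelled libraries 4 were called. Ly6g had at most 2 counts in any library, and S100a8 had 5 to 17. Of 8 B cell and plasma cell markers, Sdc1 rose, and of 8 astrocyte markers, Aqp4 and Sox9 rose while Slc1a3, Gja1 and Aldoc fell. The B cell and plasma cell markers summed to 35.4 to 209 CPM in controls and 131 to 345 CPM in the L-DL KD-labelled libraries, and the astrocyte markers to 7870 to 8017 and 6162 to 7250 CPM. Of 6 oligodendrocyte markers Mag rose, and of 8 hippocampal neuron markers Wfs1, Neurod6, Bcl11b and Spink8 fell (2 of the 8 without control replicate 1). The parts of these cells in the chemokine values were not tested.

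Among the receptors of these chemokines, Cx3cr1, known from microglia, rose. Of the 7 receptor genes reported, all tested, 2 rose (Cx3cr1 and Cxcr4) and none fell, a share near the 30.5% called among all tested genes. Cx3cr1, the fractalkine receptor, stood at 99.5, 116 and 93.4 CPM in controls and 301, 279 and 314 CPM in the L-DL KD-labelled libraries. This was a 2.89-fold rise in the receptor (adjusted p = 8.9e-05) beside the fall of its ligand Cx3cl1. Per 1000 CPM of the microglia markers Cx3cr1 still lay apart between the groups, at 69.4 to 79.8 against 93.1 to 120 CPM, as a description.

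Cxcr4, the receptor of Cxcl12, was at 15.3, 16.1 and 15.0 CPM in controls and 16.5, 24.9 and 29.1 CPM in the L-DL KD-labelled libraries. All of the latter lay above the controls, replicate 1 only just. The adjusted p was 0.0499, at the edge of the threshold, and it was 0.112 to 0.136 without any 1 of the controls or without replicate 2 or 3 of the L-DL KD-labelled libraries. Ackr3, the scavenging receptor of Cxcl12, was at 14.4, 16.7 and 18.6 CPM in controls and 33.9, 18.3 and 23.8 CPM in the L-DL KD-labelled libraries, with a log2 fold change of 0.61 (adjusted p = 0.068). Without replicate 2 of the L-DL KD-labelled libraries its adjusted p was 0.0235, and with DESeq2 0.0208.

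Ccr2, the receptor of Ccl2 and Ccl12 on monocytes, did not pass the test. It stood at 5.42, 4.12 and 4.45 CPM in controls and 5.34, 4.71 and 10.8 CPM in the L-DL KD-labelled libraries, with replicate 3 high and the other two in the control range (adjusted p = 0.22). Its log2 fold change of 0.58 had a 95% confidence interval from -0.17 to 1.33. Ccr1 (0.635 to 1.97 CPM over all libraries, adjusted p = 0.477) was the least abundant receptor. Cxcr3 and Cxcr6, receptors of T cells for Cxcl10 and Cxcl16, had log2 fold changes of -0.54 (adjusted p = 0.341) and -0.45 (adjusted p = 0.293), and their groups overlapped.

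**Figure D4:**
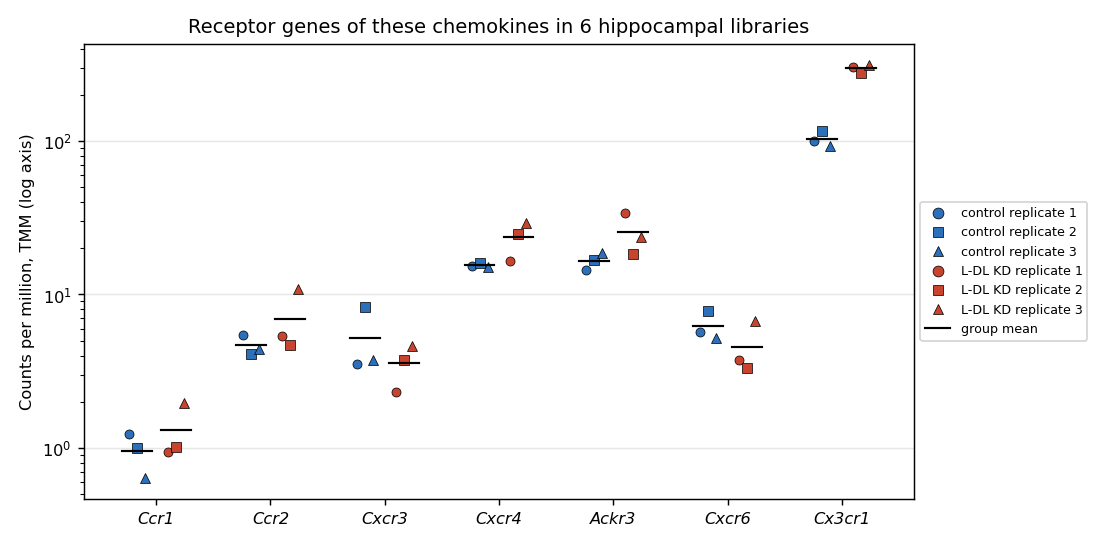
CPM (log axis) of the 7 receptor genes in each of the 6 libraries, with control libraries in blue, L-DL KD-labelled libraries in red, a marker shape for each replicate number and a bar at the group mean. Red points lie well above blue points for Cx3cr1 and overlap them for Ccr1, Ccr2, Cxcr3, Ackr3 and Cxcr6.

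The other chemokine ligands of the mouse, a list of 28, held 4 genes (Cxcl13, Ccl9, Cxcl1 and Ccl6) whose estimated folds were above those of all 10 genes, which was not tested as a difference. Of 15 tested, 4 rose, none fell and 11 did not pass the test, a share near the 30.5% called among all tested genes. A further 13 were too low to test, of which 3 had no count in any library. The median log2 fold change of the 15 was 0.02. Cxcl13, the attractant of B cells, stood at 3.27, 5.24 and 2.98 CPM in controls and 26.0, 30.6 and 25.2 CPM in the L-DL KD-labelled libraries, a 7.08-fold rise (adjusted p = 0.000186). Ccl9 rose 5.68-fold (adjusted p = 0.000135) and Ccl6 4.14-fold (adjusted p = 0.00191), both CC ligands of myeloid cells, and their groups did not overlap. Cxcl1, a neutrophil attractant, rested on 2 to 7 counts in controls and 11 to 40 in the L-DL KD-labelled libraries. It passed the filter only through the latter group, and it was not tested when a library of that group was left out. Its log2 fold change was 2.39 (adjusted p = 0.0217), and the call was lost without control replicate 2 (adjusted p = 0.0622) or 3 (0.0746). Cxcl9, which like Cxcl10 is an interferon-induced ligand of Cxcr3 and was named after its values were seen, stood at 28.4, 18.9 and 17.8 CPM in controls and 8.21, 15.4 and 17.6 CPM in the L-DL KD-labelled libraries (log2 fold change -0.66, adjusted p = 0.123).

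**Figure D5:**
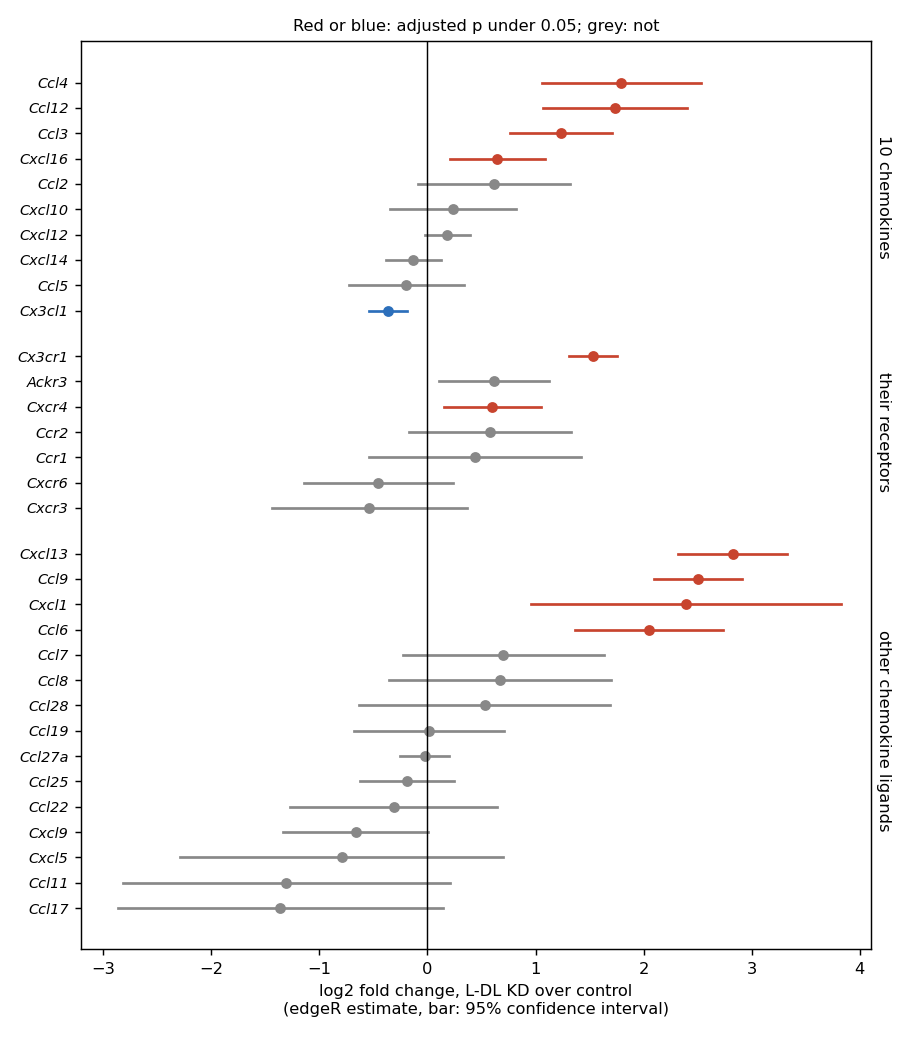
Log2 fold change of the L-DL KD-labelled libraries over controls for the 10 chemokine genes, 7 of their receptors and the 15 other chemokine ligands that were tested, with 95% confidence intervals as bars, coloured where the adjusted p was under 0.05 (red higher, blue lower) and grey elsewhere. Among the 10 genes Ccl4, Ccl12, Ccl3 and Cxcl16 are red and Cx3cl1 is blue, and the intervals of Cxcl13, Ccl9 and Ccl6 lie further to the right than that of Cxcl16.

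Of the 15 other chemokine receptors, 9 were tested and only Ccr8 passed, with a fall of the log2 level of 2.28 from 19 to 28 counts in controls to 2 to 9 counts (adjusted p = 0.0129). It passed the filter only through the controls. Ccr8 was not tested when a control was left out, and the 1 receptor called without control replicate 1 was another gene. None of these receptors was called without control replicate 2 or 3. Over the alternatives that tested it, Ccr8 had an adjusted p of at most 0.0367. Among 6 enzymes that release or trim chemokines, Adam17, a sheddase of Cx3cl1 and Cxcl16, rose by 0.59 on the log2 scale (adjusted p = 0.00323). Mmp2, a metalloproteinase that cleaves Cxcl12, rose by 1.94 (adjusted p = 0.000179), 3 did not pass the test and Ctsg had no count. NF-kappaB and inflammatory cytokine genes rose in 10 of 14 tested cases and fell in none, and the count was 6 without control replicate 2 or 3. Cd14, the lipopolysaccharide co-receptor, rose by 1.82 on the log2 scale (adjusted p = 0.000972), and Tlr2, a sensor of bacterial lipoproteins, by 1.27 (adjusted p = 0.000324). Tnf and Nfkbia, an inducer and an inhibitor of this pathway named after their values were seen, did not pass the test.

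Splicing of these genes was also measured, as PSI, the share of transcripts that include a segment, computed from junction counts. The rMATS table held 6 events in 3 of the 10 genes, of which 5 had at least 20 junction counts per library on average. The table does not number its libraries. In Cx3cl1, the 101-base exon at chromosome 8 from 94776600 to 94776700 had a PSI of at most 0.00384 in any library, and the 121-base exon from 94778028 to 94778148 had one of at least 0.984. In Cxcl14, the 106-base exon at chromosome 13 from 56295826 to 56295931 had a PSI of at least 0.986. In Cxcl16, the 201-base intron at chromosome 11 from 70458828 to 70459028 and the 70-base exon from 70458076 to 70458145 had a PSI of at most 0.0192 and 0.0324. The largest difference between the group means was 0.00849, for this last exon, and the two-sided exact permutation tests gave p from 0.4 to 1 over the 5 events (0.833 to 1 after Benjamini-Hochberg adjustment), where 0.1 is the smallest that 3 against 3 libraries allow. PSI was thus near 0 or near 1 at each of these segments in every library.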

How the data were processed

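Hippocampal RNA of control and L-DL KD mice, in 3 libraries each, was enriched for mRNA by oligo(dT) and sequenced as read pairs. Raw counts of reads for each Ensembl gene were deposited by the authors, from reads aligned to GRCm38. The submitters' processing notes list HISAT2 (version 2.1.0), HTSeq (version 0.6.1) and Bowtie (version 1.1.2), and the use of strand is not given in the sources used here. The authors also deposited rMATS junction counts, whose effective lengths of both forms were used here for PSI. Columns of the authors' own p-values, FDR and PSI differences were not used. The table names its groups by number only, and they were assigned by the sign convention in the study's methods. Of the 500 genes with the largest count ratio, 486 had junction counts in the same direction.

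Gene counts were tested with edgeR (version 4.0.16) in R (version 4.3.3), quasi-likelihood test, TMM scaling, for genes that reached 10 counts in 3 or more libraries, adjusted p under 0.05 (Benjamini-Hochberg over all 17621 genes). Standard errors are the log2 fold change over the root of the F statistic. Symbols matched 52403 of 52550 identifiers. Exon lengths are unions of GENCODE M21 exons, a later release of the same build than the one the authors used. PSI was compared with scipy (version 1.17.1). Promoter windows are from RefSeq, GRCm38.p6.

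Named genes were the 10 chemokines, 7 of their receptors (1 further gene of that list is not reported here), up to 4 called genes with the largest change per list, and Hnrnpdl. The genes and lists were chosen with earlier results of these data known. The labels list the replicates as separate samples without naming the mice. The p-values judge the difference of the groups against the spread between these libraries. Replicate libraries differed by more than sampling noise. Alternatives were DESeq2 (version 1.42.0), library size scaling, no filter, filterByExpr, the replicate number as block, and each library left out in turn.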

Additional observations from a re-analysis of the deposited data

How the results depend on the processing

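Over 11 alternatives for each of the 10 chemokines, 105 of 110 values kept their direction and their side of the threshold, and the other 5 were those of Cxcl16, which kept its direction and lost its call with 4 libraries left out in turn and with a replicate block (adjusted p = 0.078). The block also ended the call of Lck (adjusted p = 0.0582) and of Cxcr4 (0.0649), which left 1 of 7 receptors called in place of 2, and raised the B cell and plasma cell markers called from 1 to 2. Across genes, deviations of same-numbered libraries of the groups had correlations of 0.0666, 0.179 and -0.163. Differently numbered libraries had -0.258 to 0.189. With 3 libraries per group, these values cannot decide whether the numbers pair the libraries. With the block 4635 genes were called, against 5379 without it.

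Library size scaling moved the median of all genes from 0.01 to 0.04 (log2), the share of higher calls from 51.0% to 56.1%, and the other chemokine receptors called from 1 to 2. With a library left out, the genes called numbered 3498 to 6477. Counts of called list genes then ranged from 1 to 2 (receptors of the 10 chemokines), 0 to 2 (other chemokine receptors), 6 to 10 (NF-kappaB and inflammatory cytokine genes), 2 to 9 (interferon signalling genes), 2 to 4 (monocytes and neutrophils), 0 to 3 (T and NK cells), 0 to 6 (choroid plexus, where all 6 were called without replicate 1 of the L-DL KD-labelled libraries), 1 to 3 (oligodendrocytes), 2 to 6 (hippocampal neurons) and 3 to 5 (Cxcl14 interneurons). The log2 fold change of Hnrnpdl ranged up to 0.15 with a library left out, and turned from 0.03 to -0.00081 without control replicate 3 and to -0.13 without replicate 1 of the L-DL KD-labelled libraries. The causes were not tested. Counts of 14 to 30 per control library limit Ccl4, and 13 other ligands could not be judged at this depth.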
